A study of Neurospora crassa with 5 samples.

Results

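The genes described here encode the light sensors of Neurospora crassa and the enzymes of its orange carotenoid pigment. They are 10 genes, taken by locus tag from the 10591 gene rows of the count table: wc-1 (NCU02356), wc-2 (NCU00902), vvd (NCU03967), cry (NCU00582), phy-1 (NCU04834), phy-2 (NCU05790), nop-1 (NCU10055), al-1 (NCU00552), al-2 (NCU00585) and al-3 (NCU01427). The gene table of RefSeq (assembly NC12) carries the same symbol for each of the 10 locus tags. A culture of this mould acts as the female when it forms protoperithecia, the unfertilised fruiting bodies, and asexual spores (conidia) of the opposite mating type act as the male.

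In this fungus WC-1, a transcription factor that binds a flavin and senses blue light, pairs with WC-2 to form the white collar complex, which switches on light-induced genes, among them vvd and the albino genes. VVD is a small flavin photoreceptor that binds the complex and damps the response. CRY is a cryptochrome, PHY-1 and PHY-2 are phytochromes, and NOP-1 is an opsin. In the pigment pathway AL-3 makes geranylgeranyl diphosphate, AL-2 joins this precursor into phytoene and also cyclises the later product, and AL-1 desaturates phytoene. Carotenoids colour the mycelium in light and accumulate strongly in conidia.

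All cultures were of the strain FGSC#4564, whose genotype the labels write as mat a[m1]s-3B cyh-1. It is of mating type a, is mutated in the mating-type gene mat 1-2-1, and carries cyh-1, so every group shares the mutation and no comparison here measures it. Conidia of the strain were plated on cellophane over crossing medium and grown for 6 days. The uncrossed group (2 libraries, replicates 1 and 3) was taken at 0 h, and the crossed group (3 libraries, replicates 1, 2 and 3) was taken 2 h after conidia of the wild type FGSC#2489 were added. A replicate was the tissue of 1 plate, so each library mixes protoperithecia with the mycelium and any conidia of that plate and, after crossing, the added conidia. The labels name a diurnal growth incubator but give no light schedule and no time of day for either harvest, so light exposure and crossing cannot be told apart here. No wild-type culture was analysed here. After crossing means after the conidia were added, and whether these mutant cultures were fertilised was not tested.

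The libraries held 25817200 to 39639683 counts, and ribosomal RNA genes took 14.3 to 34.0% of them. Crossed replicates 2 and 3 were the closest pair (root mean square difference 0.319 in log2 CPM), but their counts differed beyond sampling noise (chi-square of 7.81 per degree of freedom), and they were kept as 2 replicates. Crossed replicate 1 lay nearer to uncrossed replicate 3 (0.476) than to either of them (0.598 and 0.557). In bulk tissue, fewer cells of a type and less RNA per cell cannot be told apart.

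The 10 genes covered a wide range of levels. Per kilobase of gene length, vvd, al-1 and al-2 were the 3 highest in each of the 5 libraries and phy-2 was the lowest. In uncrossed cultures vvd stood at 700.1 ± 29.6 CPM per kb (SD, n = 2), where CPM are counts per 1000000 on scaled library sizes. The level of al-2 there was 624 ± 167 CPM per kb (SD, n = 2), and its values of 742 and 506 lay on both sides of those of vvd and al-1, so the order of these 3 genes was not fixed. The level of al-1 was 540.0 ± 12.6 CPM per kb (SD, n = 2) in the same cultures. Among the 8480 protein-coding genes tested, between 98.7 and 99.7% had a lower per-length level than vvd, al-1 or al-2 in any library.

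Lower down came cry at 169 ± 72.8 and al-3 at 107 ± 17.5 CPM per kb (SD, n = 2, uncrossed), which overlapped. The levels of wc-2 (39.6 ± 2.74) and nop-1 (37.8 ± 4.93) also overlapped in uncrossed cultures. Below them, wc-1 (23.4 ± 2.83), phy-1 (10.1 ± 0.189) and phy-2 (1.23 ± 0.358 CPM per kb) kept this order in all 5 libraries, with no overlap between neighbours. The gene lengths are those of the gene table and include introns, so these levels are approximate.

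**Figure D1:**
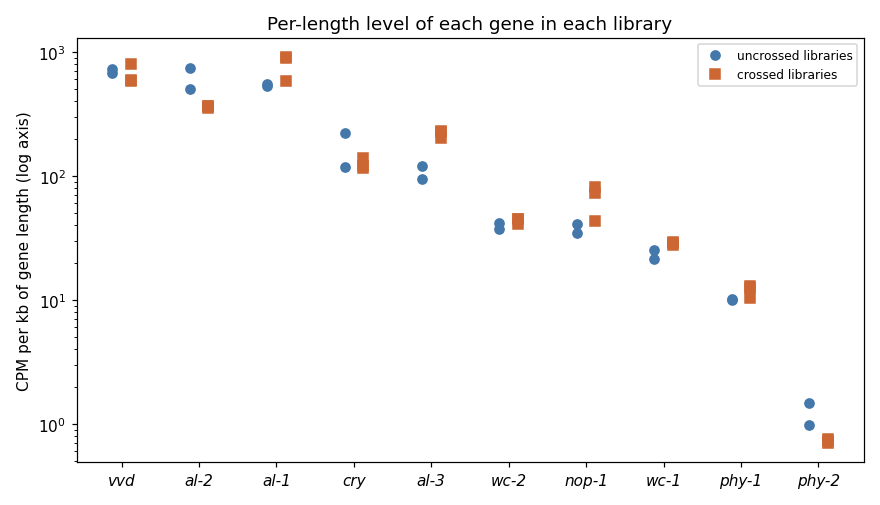
The level of each gene per kilobase of gene length in CPM per kb (log axis), with the 2 uncrossed libraries as circles and the 3 crossed libraries as squares. The genes vvd, al-2 and al-1 lie at 353 CPM per kb or above in every library, and phy-2 at 1.49 or below.

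Between uncrossed and crossed cultures most photoreceptor genes differed little and the 3 albino genes differed in opposite directions. The level of al-3 was 2.04-fold higher after crossing, that of al-2 was 1.73-fold lower, and that of al-1 was 1.47-fold higher. These are fitted folds, and a log2 difference below is the log2 fold change of crossed over uncrossed cultures. Among the photoreceptor genes nop-1 was 1.74-fold higher, phy-2 was 1.69-fold lower, and wc-1, wc-2, vvd, cry and phy-1 differed by 1.35-fold or less. None of these differences passed the adjusted threshold in edgeR or limma-voom, and those of al-3 and al-2 passed it in DESeq2.

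All 10 genes passed the filter on low counts and were tested. In the quasi-likelihood test of edgeR, adjusted by Benjamini-Hochberg over all 8638 genes tested, 0 of the 10 had an adjusted p under 0.05, where 0.0463% of all genes did. At an unadjusted p under 0.05 there were 4 of 10 (al-2, al-3, nop-1 and phy-2), against 21.3% of all genes, 10.3% being higher and 11.0% lower after crossing. Of the 4, al-3 and nop-1 were higher and al-2 and phy-2 were lower. DESeq2 called 2 of the 10 at an adjusted p under 0.05, al-3 and al-2, against 11.3% of all genes, and limma-voom called 0 at an adjusted and 5 at an unadjusted p under 0.05. The groups did not overlap in 7 of the 10 genes, against 41.9% of all genes. In 5 of them the crossed libraries lay above (21.3% of all genes) and in 2 below (20.6%). The adjusted count was 2 without uncrossed replicate 3, where 192 of 8749 genes were called, and 3 without crossed replicate 1, where 762 of 8616 were. The reported fit called 4 of 8638, and its unadjusted count of 4 members became 2 when uncrossed replicate 1, crossed replicate 2 or crossed replicate 3 was left out. The median log2 fold change of the 10 was 0.19, beside 0.00080 over all genes tested. The genes were chosen with earlier results of these data known, so these counts describe the 10 and give no evidence about light sensing or pigment genes as a class.

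**Figure D2:**
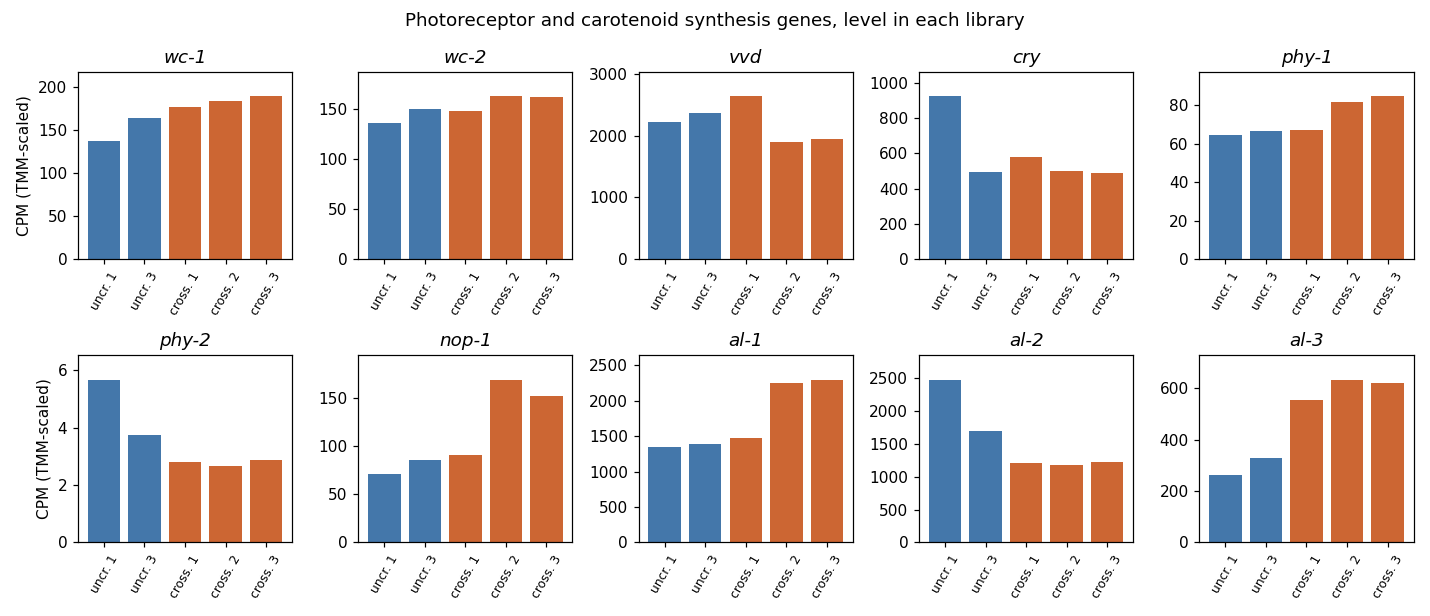
CPM of each gene in each library, as 1 bar per library (blue, uncrossed replicates 1 and 3; orange, crossed replicates 1, 2 and 3), each panel with its own axis from 0. The bars of al-3 separate the groups, from 261 and 330 to between 554 and 634 CPM, while nop-1 and al-1 are high in crossed replicates 2 and 3 alone.

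The white collar genes varied little, the highest library being 1.37 times the lowest for wc-1 and 1.20 times for wc-2. The level of wc-1 was 138 CPM in uncrossed replicate 1, 164 CPM in uncrossed replicate 3, and 177, 184 and 189.7 CPM in the crossed libraries (replicates 1, 2 and 3). Each crossed library was above both uncrossed ones, with a mean of 151 ± 18.2 CPM (SD, n = 2) against 184 ± 6.15 CPM (SD, n = 3). The log2 difference was 0.28 (SE 0.12, adjusted p = 0.241 in edgeR).

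Its partner wc-2 had 136 and 149.7 CPM before crossing and 148, 162 and 162 CPM after it. Crossed replicate 1 was below uncrossed replicate 3, so the groups overlapped, and the log2 difference was 0.14 (SE 0.11, adjusted p = 0.455 in edgeR). With plain library sizes the sign of wc-2 turned, to -0.08, where the median of all genes was -0.21. The ratio of wc-1 to wc-2 per kilobase ran from 0.569 to 0.672 over the 5 libraries, a ratio that no scaling of libraries can alter.

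The photoreceptor gene vvd was abundant throughout and did not separate the groups. It had 2228 and 2365 CPM in the uncrossed libraries, 2636 CPM in crossed replicate 1, 1903 CPM in replicate 2 and 1940.1 CPM in replicate 3. The highest and the lowest value both came from crossed libraries, and the log2 difference was -0.09 (SE 0.20, adjusted p = 0.802 in edgeR). Per kilobase, vvd was 28.4 to 31.7 times as abundant as wc-1 in both uncrossed libraries and crossed replicate 1, and 20.1 and 20.3 times in crossed replicates 3 and 2.

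The cryptochrome gene cry was set apart by a single library. It had 924 CPM in uncrossed replicate 1 and 493 CPM in uncrossed replicate 3, then 582, 503 and 487 CPM in the crossed libraries. Its log2 difference of -0.44 (SE 0.28; adjusted p = 0.388 in edgeR) became 0.09 without uncrossed replicate 1. The same library was the highest for al-2 and phy-2.

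The phytochrome genes differed in level by an order of magnitude and in the sign of their fold change. For phy-1 the values were 64.6 and 66.3 CPM before and 66.9, 81.4 and 84.6 CPM after crossing. Crossed replicate 1 exceeded the uncrossed libraries by very little, and the log2 difference was 0.25 (SE 0.13, adjusted p = 0.314 in edgeR).

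For phy-2 the values were 5.68 and 3.75 CPM before and 2.80, 2.68 and 2.88 CPM after crossing, from 79 to 167 counts per library. All 3 crossed libraries were below both uncrossed ones. The log2 difference was -0.75 (SE 0.26, unadjusted p = 0.0278, adjusted p = 0.195 in edgeR). Without uncrossed replicate 1 it was -0.43, with an unadjusted p of 0.143 in edgeR. Per kilobase, phy-1 exceeded phy-2 by 6.71 and 10.4 times in the uncrossed libraries and by 14.1 to 17.9 times in the crossed ones.

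The opsin gene nop-1 had 71.3 and 85.7 CPM before crossing, then 90.3, 169 and 152 CPM in crossed replicates 1, 2 and 3. Crossed replicate 1 lay close to the uncrossed libraries, while crossed replicates 2 and 3 were well above. The log2 difference was 0.80 (SE 0.29, unadjusted p = 0.0335, adjusted p = 0.206 in edgeR). Without crossed replicate 1 it was 1.03, with an adjusted p of 0.0313 in edgeR, and 762 genes in all were then called.

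**Figure D3:**
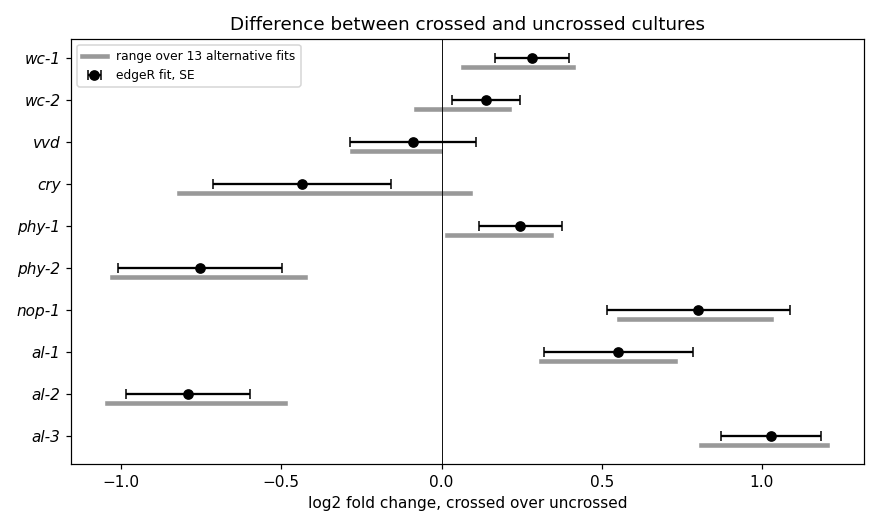
Log2 fold change of each gene, crossed over uncrossed, from the edgeR fit (points, with bars of 1 standard error), and the range over 13 alternative fits (grey lines). The lines of wc-2 and cry cross 0, those of al-3 (0.81 to 1.20) and al-2 (-1.04 to -0.49) do not.

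The carotenoid genes are taken in pathway order. The first, al-3, whose enzyme makes the geranylgeranyl precursor, had 261 and 329.9 CPM in the uncrossed libraries against 554, 634 and 621 CPM in crossed replicates 1, 2 and 3. All 3 crossed libraries stood well above both uncrossed ones, at 603 ± 43.3 CPM (SD, n = 3) against 296 ± 48.4 CPM (SD, n = 2). The log2 difference was 1.03 (SE 0.16, unadjusted p = 7.89e-04, adjusted p = 0.114 in edgeR), the largest of the 10 in size. The adjusted p was 1.03e-07 in DESeq2. Across the 13 alternatives the highest was 0.488, and 4 were under 0.05.

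The bifunctional phytoene synthase and cyclase gene al-2 showed the opposite. It had 2477 and 1689 CPM in the uncrossed libraries and 1211, 1179 and 1218 CPM in the crossed ones. The crossed libraries agreed closely (1202 ± 20.9 CPM, SD, n = 3) and were below both uncrossed libraries, which differed from each other (2083 ± 558 CPM, SD, n = 2). The log2 difference was -0.79 (SE 0.19, unadjusted p = 0.00736, adjusted p = 0.159 in edgeR). The adjusted p was 0.00273 by DESeq2, and it was 0.0454 by edgeR without uncrossed replicate 3. In the other 11 of the 13 alternatives it was 0.05 or above, up to 0.488, and without uncrossed replicate 1 the log2 difference was -0.49 with an adjusted p of 0.396 in edgeR.

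The phytoene desaturase gene al-1 had 1349 and 1394 CPM before crossing. It had 1480.4 CPM in crossed replicate 1, 2249 CPM in replicate 2 and 2299 CPM in replicate 3. As in nop-1, crossed replicate 1 was just above the uncrossed libraries and crossed replicates 2 and 3 were far above. The log2 difference was 0.55 (SE 0.23, unadjusted p = 0.0582, adjusted p = 0.247 in edgeR), and without crossed replicate 1 it was 0.73 with an adjusted p of 0.0444 in edgeR.

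Summed over the albino genes, the level differed by less than the spread between replicates, and the shares of the genes in it did not overlap between the groups. The sum of al-1, al-2 and al-3 was 3749.7 ± 477 CPM (SD, n = 2) in uncrossed and 3815 ± 495 CPM (SD, n = 3) in crossed cultures. With plain library sizes the order turned, at 4128 CPM in uncrossed and 3567 CPM in crossed cultures. Per kilobase, al-2 made up 54.2 and 43.1% of it in uncrossed replicates 1 and 3, and 31.6, 24.0 and 24.4% in crossed replicates 1, 2 and 3. The share of al-3 was 6.93 and 10.2% before crossing and 17.5, 15.7 and 15.1% after it. The share of al-1 was 38.8 and 46.8% before crossing and 50.9, 60.3 and 60.6% after it. Per kilobase, the ratio of al-1 to al-2 was 0.716 and 1.09 in the uncrossed libraries and 1.61, 2.51 and 2.48 in the crossed ones, again independent of library scaling. These shares were worked out after the fold changes were seen and carry no test.

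**Figure D4:**
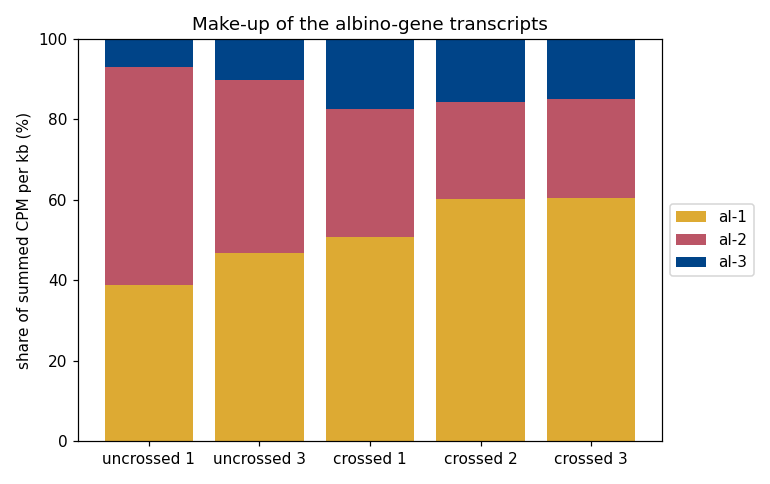
Share of al-1, al-2 and al-3 in their summed CPM per kb (%), as 1 stacked bar per library. The share of al-2 lies at 43.1% or above in both uncrossed libraries and at 31.6% or below in the 3 crossed ones.

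Positions were compared by gene order in assembly NC12, because the build behind the counts is not stated in the files or labels. Among the 10 genes, 4 (wc-2, cry, al-1 and al-2) lie on the same chromosome, with 2 genes between al-2 and cry and 38 between al-2 and al-1. Between al-2 and cry, NCU00584 had 152 and 133 CPM in uncrossed and 92.8, 128 and 109 CPM in crossed cultures. Its log2 difference was -0.38 (SE 0.16, adjusted p = 0.244 in edgeR), and the groups did not overlap. The other gene between them, NCU00583, did not pass the filter. Beyond cry, NCU00581 had a log2 difference of -0.32 (SE 0.16, adjusted p = 0.302 in edgeR), and its groups overlapped. These neighbours were chosen after their values were seen. On the far side of al-2, ncw-6 (NCU00586) had the opposite sign, with 116 and 216 CPM before and 293, 522 and 508 CPM after crossing (log2 difference 1.41, SE 0.38, adjusted p = 0.164 in edgeR).

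Likeness across the libraries was measured as the root mean square difference of log2 CPM after each gene was centred on its own mean over the 5 libraries, and is a description of these libraries. The closest pair within the 10 was phy-2 and al-2 (0.033), followed by wc-1 and wc-2 (0.0837), and al-2 and al-3 were the farthest apart (0.93). The measure is not scaled by how much a gene varies, so genes that vary little, such as wc-1 and wc-2, lie close. Both phy-2 and al-2 were highest in uncrossed replicate 1, and phy-2 had only 79 to 167 counts per library. Outside the 10, the genes most like wc-1 were NCU01186 (0.00947) and cdp-2 (NCU00738, 0.0151). Those most like vvd were NCU03480 (0.0209) and NCU08190 (0.0306), and those most like al-1 were NCU09196 (0.0276) and NCU02099 (0.0278). In NCU02099 the values were 64.4 and 67.5 CPM before and 72.3, 114 and 113 CPM after crossing, with the step between crossed replicate 1 and the other crossed libraries that al-1 shows.

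Other genes, listed for the light response and carotenoid metabolism, gave the setting of the 10. Of the 41 names searched, 25 genes were matched in the gene table and tested, and 0 had an adjusted p under 0.05 by edgeR. For isoprenoid supply 12 names were searched and 1 (fpp) was matched, so the other steps of that supply are not covered. At an unadjusted p under 0.05 there were 7 of 25 (6 higher, 1 lower), against 21.3% of all genes (10.3% higher, 11.0% lower). DESeq2 called 4 of 25 (csp-1, ccg-1, con-6 and eas, all higher after crossing), against 11.3% of all genes, and limma-voom called 0 at an adjusted p. All 7 were among the 13 light-induced genes and light regulators, whose groups did not overlap in 7 of 13 (6 with crossed above), against 41.9% of all genes (21.3% with crossed above). The median log2 fold change of those 13 was 0.38.

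The clock gene frq had 129 and 148 CPM before and 158, 177 and 176 CPM after crossing (log2 difference 0.30, SE 0.12, adjusted p = 0.227 in edgeR). Counting is not stated to use strand, so frq and its known antisense transcript cannot be told apart. The repressor gene csp-1 had 123 and 157 CPM before and 202, 252 and 245 CPM after crossing, and its log2 difference was 0.74 (SE 0.17 and adjusted p = 0.156 in edgeR and 0.00322 by DESeq2). Among the 7 genes at an unadjusted p under 0.05, the lower one was sub-1, which encodes a transcription factor of light-induced genes, with 86.8 and 83.0 CPM before and 69.2, 74.0 and 73.4 CPM after crossing (log2 difference -0.23, SE 0.09, adjusted p = 0.215 in edgeR). Of the 13 genes, adv-1 and sah-1 were also fitted below 0 (-0.56 and -0.15), with overlapping groups.

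Of the 3 genes listed for late carotenoid steps, 0 had an unadjusted p under 0.05 in edgeR, against 21.3% of all genes. In that fit 1 was above 0 (cao-2) and 2 were below (cao-1 and ylo-1). The oxygenase gene cao-1 is on the list by name, and its place in carotenoid synthesis was not tested. It had 14.9 and 14.5 CPM before and 15.5, 6.29 and 7.12 CPM after crossing (log2 difference -0.61, SE 0.41, adjusted p = 0.415 in edgeR). Crossed replicate 1 was the highest library and the other crossed ones were the lowest. The torulene-cleaving oxygenase gene cao-2 had 116 and 184 CPM before and 164, 187 and 182.5 CPM after crossing, with overlapping groups. The aldehyde dehydrogenase gene ylo-1, of the final step to neurosporaxanthin, had 131 and 123 CPM before and 118, 105 and 109 CPM after crossing (log2 difference -0.20, SE 0.10, adjusted p = 0.299 in edgeR). The farnesyl diphosphate synthase gene fpp, just before al-3 in the pathway, had a log2 difference of -0.33 (SE 0.16, adjusted p = 0.295 in edgeR), against 1.03 for al-3.

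Genes listed around the white collar complex differed little in level between the groups. All 8 genes on that list (frh, fwd-1, ngf-1, rco-1, rcm-1, ckb-1, cka and prd-4) had log2 fold changes between -0.12 and 0.07. At an unadjusted p under 0.05 in edgeR there were 0 of 8, against 21.3% of all genes. The groups did not overlap in 3 of the 8 (2 with crossed above, 1 below), against 41.9% of all genes (21.3% above, 20.6% below). The RNA helicase gene frh, whose product binds FRQ, had 60.9 and 68.4 CPM before and 64.2, 67.8 and 70.5 CPM after crossing.

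**Figure D5:**
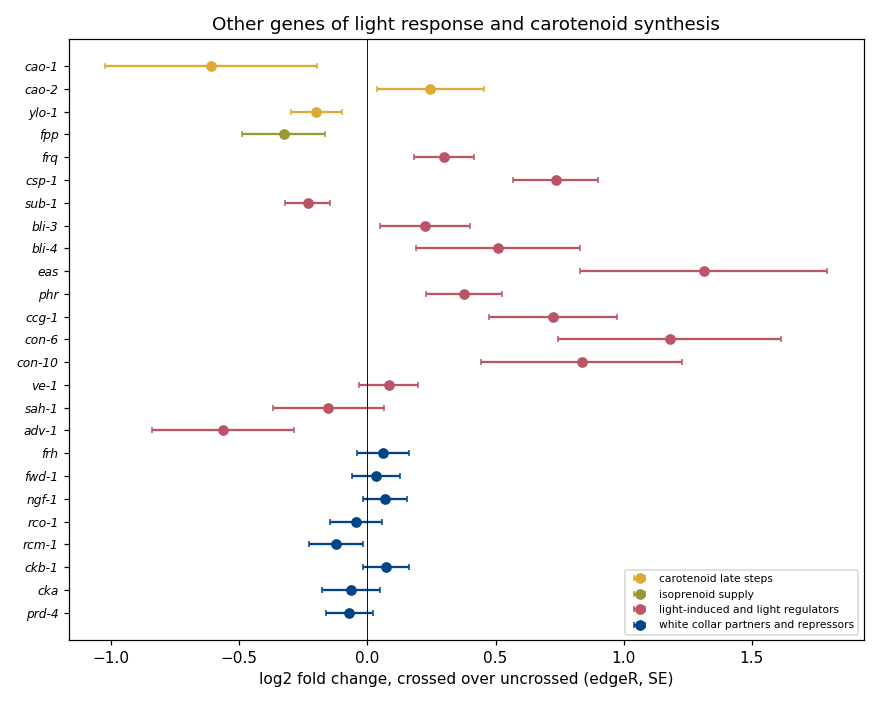
Log2 fold change, crossed over uncrossed, of 25 other genes listed for light response and carotenoid synthesis (points, with bars of 1 standard error from edgeR), coloured by list. The genes on the list named white collar partners and repressors lie between -0.12 and 0.07. The largest values are those of eas (1.31) and con-6 (1.18).

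Conidia carry carotenoids and were added at crossing, so conidial markers were set beside the albino genes. All 5 markers (eas, con-6, con-10, con-8 and con-13) were present in every library, and 3 of them are also on the light list. Their summed level was 15162 and 30531 CPM before crossing (replicates 1 and 3) against 35718, 64029 and 59585 CPM after it (replicates 1, 2 and 3). Most of that sum was eas, with 9197 and 22810 CPM before and 27897, 47303 and 44024 CPM after crossing. The sum was highest in crossed replicates 2 and 3, as were nop-1, al-1 and the share of ribosomal RNA (34.0 and 33.6%, against 19.3% in crossed replicate 1). It was lowest in uncrossed replicate 1, where al-2, cry and phy-2 were highest. Of the single markers, con-10 was instead lowest in crossed replicate 1 (485 CPM, against 521 and 497 CPM in the uncrossed libraries). Taken singly, the groups did not overlap in 3 of the 5 (con-6, con-13 and eas), all with crossed above. Over all genes 41.9% did not overlap, 21.3% with crossed above. The values of con-13 were 8.88 and 35.8 CPM before and 84.7, 142 and 138 CPM after crossing. The part of conidial RNA in any of these values was not tested.

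Female tissue was represented by the genes poi-2, app, fsd-1, pp-1 and T, each detected in every library. The listed name asm-1 was not matched, because the gene table writes it Asm-1 (NCU01414), and it is not among the 5. Its log2 difference was 0.03 (SE 0.20, adjusted p = 0.929 in edgeR). The summed level of the 5 was 5999 and 14896 CPM in the uncrossed libraries and 8905, 7022 and 6601 CPM in the crossed ones, so the groups overlapped in the sum. Most of its uncrossed mean of 10447 CPM came from poi-2 (5324 CPM) and app (4847 CPM). Taken singly, the groups did not overlap in 1 of the 5 (T), against 41.9% of all genes. The tyrosinase gene T had 15.5 CPM in uncrossed replicate 1, 0.860 CPM in uncrossed replicate 3 and 0.196 to 0.291 CPM in the crossed libraries. The part of differences in tissue make-up in the values of the 10 genes was not tested.

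The authors' deposited table of relative expression, with 1 estimate per stage, put al-2 at 1.92 in uncrossed relative to 1 in crossed cultures, and al-3 at 1.74 and al-1 at 1.25 in crossed relative to 1 in uncrossed cultures. In the authors' deposited table the intervals of the stages lay apart for 9 of the 10 genes (all but phy-1), against 75.3% of all genes with an estimate in both. The direction was the same as in the edgeR fit for 9 of the 10. The exception was wc-2, at 1.06 in uncrossed relative to 1 in crossed cultures in the authors' deposited table. That table rests on the same libraries, and neither the files nor the labels say whether its intervals include the spread between plates.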

How the data were processed

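For 5 libraries the authors deposited whole-number raw counts of each gene, and a table of relative expression that gives a ratio per stage with distances to its limits, per the file headers. The labels' protocols give stranded libraries with paired reads of 101 bp. CASAVA 1.8.2, fastp, HISAT2 2.1.0 and StringTie 1.3.3b are named without roles in the submitters' processing notes, with the build, annotation and strand setting not given in the sources used here. If the counts were derived from transcript coverage they are estimates.

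A row with 6 values for 5 columns (1 row) was left out. Symbols, lengths and gene order came from the RefSeq gene table (10590 of 10591 rows matched by locus tag). Counts were filtered with filterByExpr and scaled by TMM, and CPM use these scaled library sizes. The main test was quasi-likelihood, two-sided, in edgeR 4.0.16 under R 4.3.3, with the group as the only term, adjusted over all genes. Standard errors come from its F statistic. It was tested on simulated data. Alternatives were DESeq2 1.42.0, limma-voom (limma 3.58.1), other scalings and filters, removal of ribosomal RNA genes, a replicate block and each library left out. Likeness used log2 CPM with a prior count of 2. Plates are separate cultures, per the labels' protocols. Named genes are all 10 members, genes on the pathway and marker lists, and for wc-1, vvd and al-1 the 2 nearest genes; the neighbours of al-2 were chosen after their values were seen. Members and lists were chosen with earlier results of these data known. No sequence was used here.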

Additional observations from a re-analysis of the deposited data

How the results depend on the processing

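Over 13 alternative fits the log2 fold changes of wc-1, vvd, phy-1, phy-2, nop-1, al-1, al-2 and al-3 kept their sign. That of wc-2 was -0.0798 with plain library sizes, where the median of all genes was -0.214. That of cry ran from -0.82 to 0.0879 when each library was left out in turn, the latter without uncrossed replicate 1. The number of the 10 genes with an adjusted p under 0.05 was 0 in the reported edgeR fit, 2 with DESeq2 (al-2 and al-3) and 1 with the replicate block (al-3, adjusted p = 0.0496 by edgeR). It ran from 0 to 3 with libraries left out: 2 (al-2 and al-3) without uncrossed replicate 3, 3 (al-1, al-3 and nop-1) without crossed replicate 1, and 0 otherwise. At an unadjusted p the count was 4, and 2 to 5 with libraries left out, with 2 when uncrossed replicate 1 or either of crossed replicates 2 and 3 was left out. Of the 25 other listed genes 4 passed with DESeq2. With a crossed library left out, 6 passed without replicate 1 (adv-1, cao-1, con-10, con-6, csp-1 and phr) and 0 without replicate 2 or 3. With a lone uncrossed library, its spread was taken to be that of the crossed group.

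Over all genes, edgeR called 4, DESeq2 987 and the blocked fit 266; leaving out a library gave 0 to 762. Both groups hold replicates numbered 1 and 3. The correlation across genes of deviations from the group mean was 0.257 for the pair numbered 1 and 0.224 for that numbered 3. With 2 pairs and no label for what a number marks, the libraries share only a number. Number 2 occurs in the crossed group alone and adds nothing to a blocked difference. Without ribosomal RNA genes the summed albino-gene level was 4990.2 CPM in uncrossed and 5084 CPM in crossed cultures, since fewer counts make up the total. With plain library sizes these were 4128 and 3567 CPM, the reverse order. Levels by coding length were not run, because no coding lengths were used here. With 79 to 167 counts per library, phy-2 has the least depth of the 10. The cause of the other differences was not tested.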
